A study of Homo sapiens with 4 samples.

Results

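Neratinib was added on top of fulvestrant in BT474 cells, and the transcripts of single cells were counted after 4 h. BT474 is an established human breast cancer line that carries the estrogen receptor and an amplified HER2 gene (ERBB2). Cells given fulvestrant (100 nM) and neratinib (200 nM) together are compared here with cells given fulvestrant (100 nM) alone. Cells given neratinib (200 nM) without fulvestrant, and cells given the vehicle DMSO, are set beside them. All 4 groups are the same line, grown in the same medium with serum, and each is 1 library, so nothing below has a replicate check. A cell was a barcode with at least 5000 UMIs (unique molecular identifiers, each standing for 1 captured RNA molecule), at least 500 genes and at most 50% of UMIs from mitochondrial (MT-) genes. That rule gave 3800 cells with fulvestrant + neratinib and 3394 with fulvestrant, and 3433 with neratinib and 4240 with DMSO.

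Neratinib binds the ATP pocket of EGFR, HER2 and HER4 irreversibly. Fulvestrant competes with estradiol for the estrogen receptor and leads to its degradation. ERBB receptors pair with each other on ligand binding, or by sheer abundance where HER2 is amplified, and HER3 (ERBB3) is the partner best known for recruiting PI3K. From these pairs the signal runs by RAS to the kinase ERK, which raises immediate early transcripts and its own inhibitors, and by PI3K to AKT. AKT keeps FOXO transcription factors out of the nucleus, so that FOXO target genes, ERBB3 and insulin receptor genes among them, are known to be transcribed when AKT is inactive.

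The summed cells held 90314413 UMIs with fulvestrant + neratinib and 82749213 with fulvestrant, with a median of 22202.5 and 23293 UMIs per cell. Levels are given as scaled CPM, which is CPM after a median-of-ratios scaling over the 4 libraries in place of total counts, and 1 UMI was worth 0.0114 scaled CPM with fulvestrant + neratinib and 0.0117 with fulvestrant. Brackets hold 95% Poisson intervals for levels and 95% intervals of the exact conditional binomial for log2 ratios, and they cover counting error only. A lower level in such a sum may be fewer cells of a kind or less RNA per cell, which the sum alone cannot tell apart. For some genes and lists, values within scored phases or sums per cell are given below. The median MT- share per cell was 21.0% with fulvestrant + neratinib against 16.6% with fulvestrant, and 21.0% with neratinib against 16.2% with DMSO. The part of that share in the differences below was not tested, and values from cells with at most 20% MT- UMIs are given where they matter. Of the cell barcodes, 5 were shared by the fulvestrant + neratinib and fulvestrant libraries. All 14 identity markers of the line were measured, KRT8, KRT18, EPCAM, GATA3 and ERBB2 among them. Of the markers of other cells, 0 of 11 immune, 1 of 10 fibroblast and 1 of 7 endothelial genes were measured. The immune list summed to 0.95 scaled CPM with fulvestrant + neratinib and 0.74 with fulvestrant, the fibroblast list to 10.8 and 12.2, and the endothelial list to 1.83 and 2.44. Just outside the UMI minimum, at 4500 to under 5000 UMIs, lay 20 barcodes with fulvestrant + neratinib and 19 with fulvestrant, and just inside, at 5000 to under 5500 UMIs, lay 18 and 14. Over 50 and up to 55% MT- lay 7 barcodes with fulvestrant + neratinib and 4 with fulvestrant, and at 45 to 50% lay 4 and 4.

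Of 11002 genes with a mean of at least 2 scaled CPM over the 2 libraries, called measured below, 819 (7.44%) were at least 1.5-fold higher with fulvestrant + neratinib than with fulvestrant, and 1172 (10.7%) were at least 1.5-fold lower. These shares are the background for the counts of the gene lists below. The lists and their members were chosen with earlier results of these data known. The median measured gene lay at -0.07 on the log2 scale. Scaled by total counts instead, the median lay at -0.16 and the split was 654 higher and 1548 lower. At 2-fold or more, 284 genes (2.58%) were higher and 324 (2.94%) lower. At 4-fold or more, 26 genes (0.236%) were higher and 15 (0.136%) lower. The lowest ratios were those of FOS and EGR1, both immediate early transcription factors, and the highest those of DEPP1 and IRS2, both known FOXO targets.

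**Figure D1:**
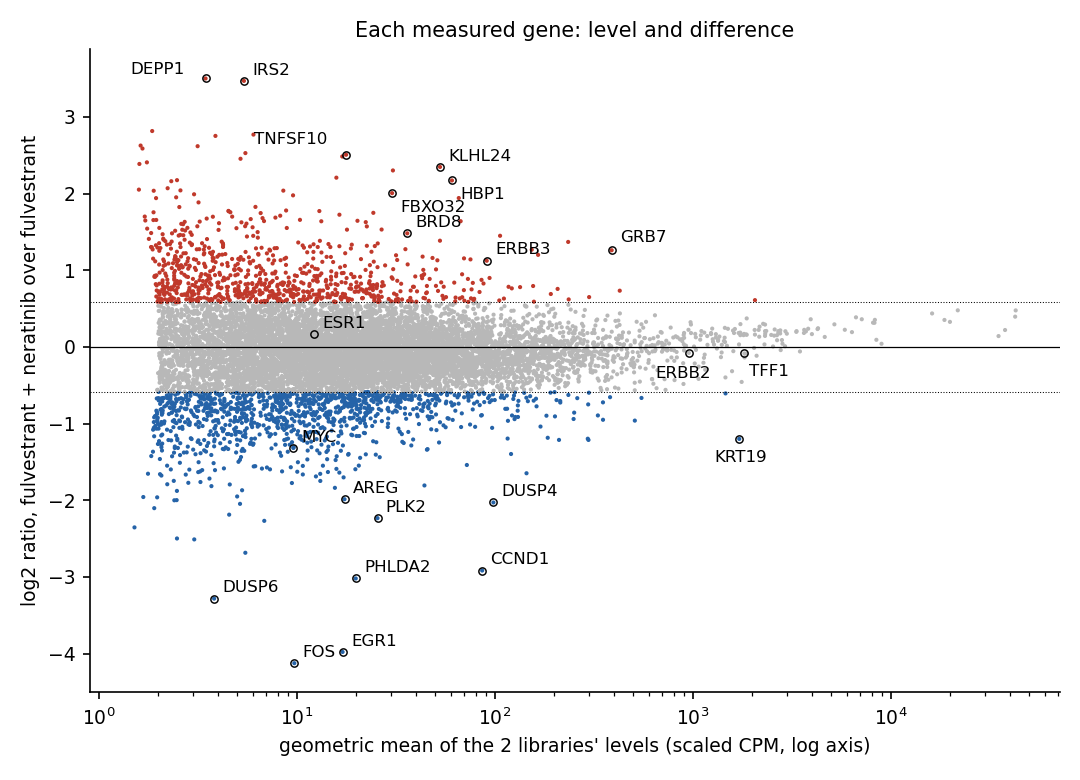
Each point is 1 of 11002 measured genes, with the geometric mean of its levels in the fulvestrant + neratinib and fulvestrant libraries (scaled CPM, log axis) against the log2 ratio of fulvestrant + neratinib over fulvestrant; dotted lines mark 1.5-fold, red points are higher and blue points lower, and circled genes are named. FOS and EGR1 lie near -4, DEPP1 and IRS2 near 3.5, while ERBB2 and TFF1 lie close to 0 at high level.

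Among the ERBB receptors, the drugged ERBB2 transcript itself differed little, while the transcripts of its partner ERBB3 and its adaptor GRB7 were more than 2-fold higher. ERBB2 had 931 scaled CPM [924, 937] with fulvestrant + neratinib against 982 [975, 989] with fulvestrant, a log2 ratio of -0.08 [-0.09, -0.06]. ERBB3 had 135 scaled CPM [132, 137] with fulvestrant + neratinib against 61.7 [60.02, 63.4] with fulvestrant, a log2 ratio of 1.13 [1.08, 1.17]. GRB7, an SH2 adaptor that binds HER2 and sits in its amplicon, had 603 scaled CPM with fulvestrant + neratinib against 252 with fulvestrant, a log2 ratio of 1.26 [1.24, 1.28]. EGFR was within 1.5-fold at 8.03 scaled CPM with fulvestrant + neratinib against 10.6 with fulvestrant (-0.41 [-0.55, -0.26]), and came to -0.60 with at most 20% MT- UMIs, which is past 1.5-fold. ERBB4 had 7.72 against 5.01, a log2 ratio of 0.62 [0.45, 0.80], which is just past 1.5-fold. Of 16 measured receptors and receptor-proximal genes, 6 were higher and 2 lower, with a median of 0.11. Besides ERBB3, GRB7 and ERBB4, the higher members were the docking protein GAB1 (1.01 [0.81, 1.22]), the ubiquitin ligase CBLB (0.81 [0.63, 0.99]) and LRIG1 (0.66 [0.54, 0.78]), a membrane protein that restrains ERBB receptors. The lower members were ERRFI1 (-1.16 [-1.36, -0.97]), which encodes the cytoplasmic EGFR inhibitor MIG6, and the ubiquitin ligase CBL (-0.64 [-0.80, -0.48]). ERBB4 at 0.44 with at most 20% MT- UMIs, LRIG1 at 0.55 in cells scored G1 and CBL at -0.36 in cells scored G2M came inside 1.5-fold.

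Genes beside ERBB2 on 17q12 differed from each other. Of 16 measured, 4 were higher, 0 lower and the rest within 1.5-fold, and the median was -0.05. FBXL20, an F-box protein gene, had 378 scaled CPM with fulvestrant + neratinib against 146 with fulvestrant (1.37 [1.34, 1.40]). GSDMB (0.81 [0.71, 0.91]) and TCAP (0.74 [0.62, 0.86]) were the other higher genes besides GRB7.

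Of 11 ligand genes of the family, AREG alone was measured, and it was lower. AREG encodes amphiregulin, a ligand of EGFR whose gene also responds to estrogen. It had 8.75 scaled CPM [8.15, 9.39] with fulvestrant + neratinib against 34.7 [33.4, 35.9] with fulvestrant, a log2 ratio of -1.99 [-2.10, -1.87]. The other ligands stood at or below 1.82 scaled CPM in both libraries, the highest being BTC with 1.33 and 1.82, and NRG1 had no UMI in either.

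Insulin pathway genes, 2 receptors and an adaptor, were the higher members among the other receptor tyrosine kinase genes. IRS2, the adaptor that links insulin and IGF1 receptors to PI3K, had 18.0 scaled CPM [17.1, 18.9] with fulvestrant + neratinib against 1.62 [1.37, 1.92] with fulvestrant, a log2 ratio of 3.47 [3.22, 3.73]. IGF1R had 39.1 against 15.7 (1.32 [1.23, 1.41]) and INSR had 18.4 against 7.41 (1.31 [1.18, 1.45]). Of 16 measured, these 3 were higher and 6 were lower, with a median of -0.32. The lower members were mostly Eph receptors, which bind ephrins on neighbouring cells: EPHA4 (-1.14 [-1.35, -0.92]), EPHA1 (-1.02 [-1.23, -0.81]), EPHB4 (-0.71 [-0.81, -0.61]) and EPHB6 (-0.61 [-0.89, -0.33]). The other lower members were FGFR3 at -0.73 [-1.005, -0.45] and TYRO3 at -0.71 [-0.93, -0.50]. The adaptor IRS1 was within 1.5-fold, with 6.46 scaled CPM against 8.40 (-0.38 [-0.54, -0.22]). EPHB4 at -0.45 and EPHB6 at -0.49 in cells scored G2M, FGFR3 at -0.48 in cells scored S and TYRO3 at -0.45 in cells scored G1 came inside 1.5-fold.

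Negative feedback genes of ERK were lower in part. DUSP6, a phosphatase specific for ERK, had 1.23 scaled CPM [1.01, 1.48] with fulvestrant + neratinib against 11.9 [11.2, 12.7] with fulvestrant, a log2 ratio of -3.28 [-3.58, -2.99]. DUSP4, a nuclear phosphatase of ERK and the most abundant of the lower members, had 48.7 [47.3, 50.2] against 199 [196, 202], a log2 ratio of -2.03 [-2.08, -1.98]. SPRED1, a membrane inhibitor of RAS signalling, had 0.67 against 3.42 (-2.35 [-2.78, -1.95]). DUSP5 (-1.68 [-2.01, -1.35]), DUSP7 (-1.20 [-1.49, -0.91]) and SPRY1 (-1.15 [-1.36, -0.94]) were lower by less. Among the 14 measured, 6 were lower and 1, SPRED3 (0.68 [0.37, 0.998]), was higher; the list's median was -0.45. SPRED3 was at 0.18 in cells scored S. SPRY4, below the level that counts as measured, had 5 UMIs with fulvestrant + neratinib against 108 with fulvestrant. The stress-induced phosphatase DUSP1 was within 1.5-fold at 69.2 scaled CPM with fulvestrant + neratinib against 68.0 with fulvestrant.

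Effectors downstream of ERK had the lowest median of the lists with more than 4 measured members. Of 12 measured, 8 were lower and 0 higher, and the median was -1.02. CCND1, the cyclin D1 gene that drives the G1 to S transition, had 31.4 scaled CPM [30.3, 32.6] with fulvestrant + neratinib against 237 [234, 241] with fulvestrant, a 7.55-fold lower level. MYC had 6.09 [5.58, 6.62] against 15.2 [14.3, 16.01], a log2 ratio of -1.32 [-1.46, -1.17]. PLK3 (-1.96 [-2.32, -1.62]), the potassium channel gene KCNN4 (-1.35 [-1.60, -1.10]), UPP1 (-1.04 [-1.18, -0.89]) and the ETS factor gene ETV4 (-0.73 [-0.98, -0.49]; -0.47 in cells scored S) were lower too.

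The immediate early genes did not move as 1 group. FOS had 2.33 scaled CPM [2.02, 2.67] with fulvestrant + neratinib against 40.6 [39.3, 42.0] with fulvestrant, a 17.4-fold lower level. EGR1 had 4.29 [3.87, 4.75] against 67.6 [65.9, 69.4], 15.8-fold lower. FOSB (-2.27 [-2.46, -2.08]), IER2 (-1.65 [-1.69, -1.61]) and the nuclear receptor gene NR4A1 (-1.59 [-1.71, -1.47]) followed. Of 27 measured, 11 were lower and 1 was higher, with a median of -0.49. The higher member was FOSL2, a FOS family gene, with 19.8 scaled CPM against 12.4 (0.68 [0.57, 0.79]), while JUNB was lower at -0.64 [-0.69, -0.58]. In cells scored G1 both came inside 1.5-fold, FOSL2 at 0.51 and JUNB at -0.33. In barcodes with 1 to 100 UMIs, which mostly hold free RNA, the log2 ratio was -3.93 for FOS and -3.35 for EGR1.

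The promoter of EGR1 shows the element that serum response factor and its ERK-phosphorylated partners are known to bind. Its 250 bases before the RefSeq start (GRCh38.p14, chr5:138465229-138465478, plus strand) hold 2 CArG boxes, given in capitals:
EGR1: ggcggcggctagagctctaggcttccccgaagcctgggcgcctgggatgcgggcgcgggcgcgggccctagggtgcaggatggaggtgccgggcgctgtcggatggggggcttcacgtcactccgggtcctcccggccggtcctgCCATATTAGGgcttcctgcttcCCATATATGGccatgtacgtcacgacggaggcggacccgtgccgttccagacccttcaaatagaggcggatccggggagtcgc
A CArG box lay in 1.14% of all 27305 promoters of that length in the table, in 2 of the 25 immediate early promoters matched and in 9 of 893 promoters (1.01%) of genes at least 1.5-fold lower. FOS had none in this window.

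**Figure D2:**
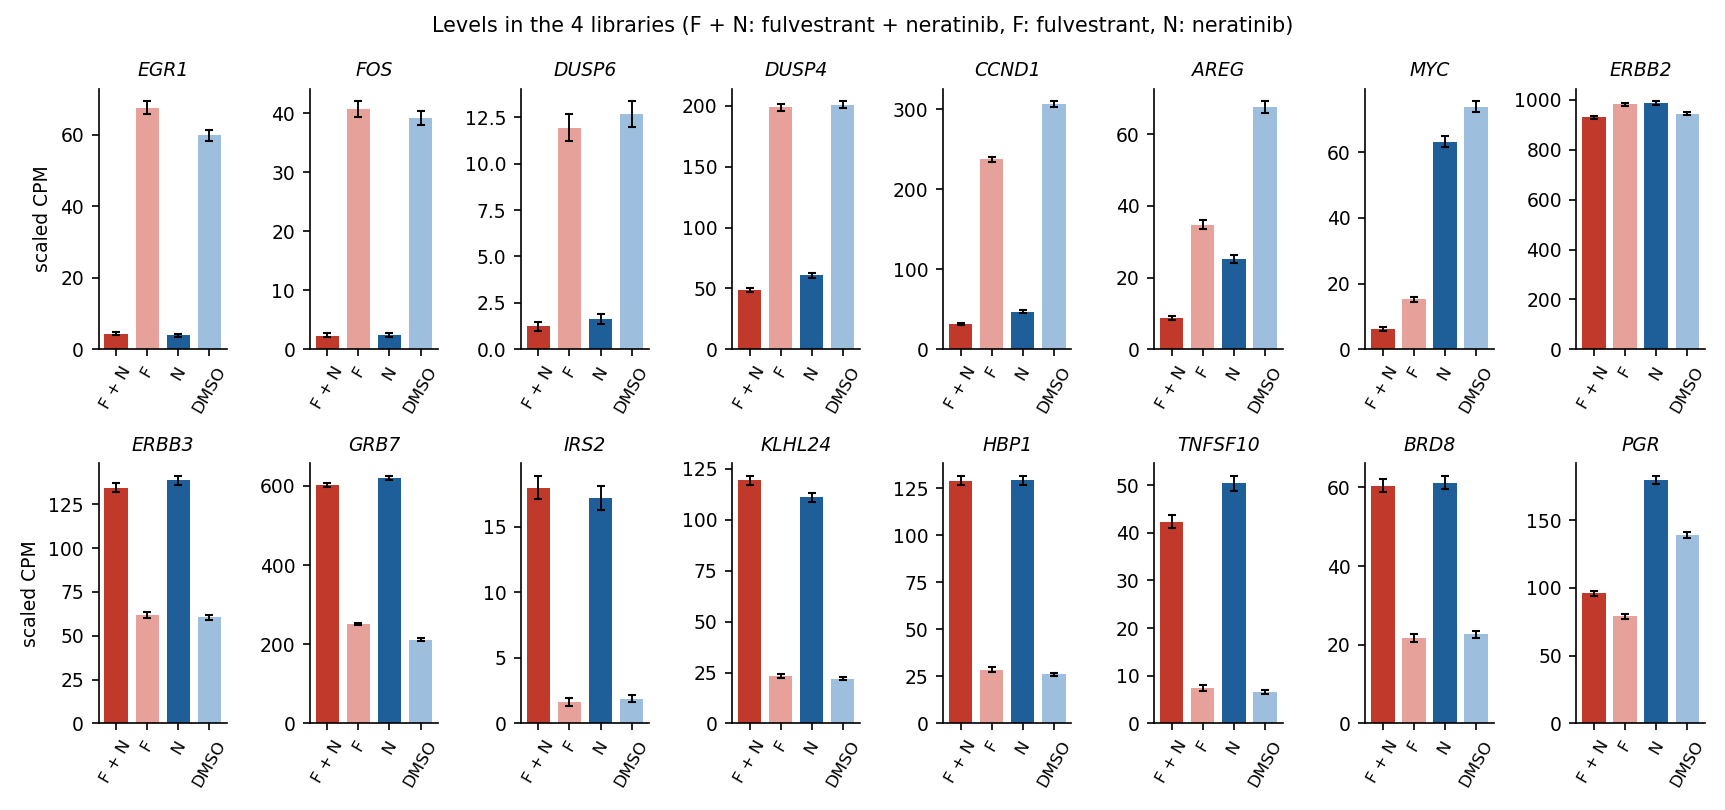
Bars give the level of 16 genes in scaled CPM in each library, in the order fulvestrant + neratinib, fulvestrant, neratinib and DMSO, with 95% Poisson intervals that cover counting error only. The levels of EGR1, FOS and DUSP6 are close to 0 in both libraries with neratinib, while MYC is low in both libraries with fulvestrant.

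Known FOXO targets were higher as a group, with the highest ratios of all lists. The members were chosen with earlier results of these data known, so their direction as a group is no independent check. DEPP1, a gene named for its induction by progesterone in decidua and a known FOXO target, had 11.6 scaled CPM [10.9, 12.4] with fulvestrant + neratinib against 1.03 [0.824, 1.27] with fulvestrant. KLHL24, a substrate adaptor of a ubiquitin ligase, had 119 [117, 122] against 23.4 [22.4, 24.5], a log2 ratio of 2.35 [2.28, 2.42]. HBP1, a repressor of the cell cycle, had 129 [127, 131] against 28.6 [27.5, 29.8], 4.51-fold higher. TNFSF10, the gene of the death ligand TRAIL, had 42.3 against 7.44 (2.51 [2.39, 2.63]). PIK3IP1, which encodes an inhibitor of PI3K at the membrane, had 34.1 against 7.37 (2.21 [2.08, 2.33]). FBXO32, the ubiquitin ligase gene atrogin-1, had 60.8 against 15.1 (2.01 [1.92, 2.10]).

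Of 42 FOXO targets measured, 22 were higher and 2 lower, and the median was 0.78 against -0.07 for all measured genes. Further higher members were CREBRF (2.30 [2.21, 2.39]), YPEL3 (1.94 [1.88, 2.002]), GABARAPL1 (1.69 [1.52, 1.86]), PNRC1 (1.45 [1.41, 1.495]), BTG1 (1.27 [1.23, 1.31]) and the cyclin G2 gene CCNG2 (1.20 [1.17, 1.24]). The lower members were CDKN1A (-0.87 [-1.02, -0.73]), the p21 gene, and TRIB1 (-0.62 [-0.71, -0.53]). In cells with at most 20% MT- UMIs, 21 were higher and 2 lower, and among cells scored G1 22 were higher and 1 lower, CDKN1A coming to -0.41. TRIB1 came to -0.38 in cells scored S.

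Promoters of HBP1 and DEPP1 hold the letters TGTTTAC, a core that forkhead factors bind, here on the opposite strand as GTAAACA and given in capitals. Both are the 250 bases before the RefSeq start in GRCh38.p14, HBP1 at chr7:107168753-107169002 (plus strand) and DEPP1 at chr10:44978810-44979059 (minus strand):
HBP1: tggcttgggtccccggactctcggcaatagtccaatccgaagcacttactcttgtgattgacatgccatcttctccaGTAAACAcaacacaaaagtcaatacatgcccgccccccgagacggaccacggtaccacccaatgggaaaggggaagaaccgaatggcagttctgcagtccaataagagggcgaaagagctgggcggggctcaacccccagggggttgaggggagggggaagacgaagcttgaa
DEPP1: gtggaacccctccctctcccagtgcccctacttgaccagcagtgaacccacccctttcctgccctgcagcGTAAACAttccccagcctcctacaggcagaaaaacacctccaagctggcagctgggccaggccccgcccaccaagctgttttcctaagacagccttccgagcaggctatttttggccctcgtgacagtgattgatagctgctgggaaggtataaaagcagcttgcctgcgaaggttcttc
The match begins 173 bases before the start in HBP1 and 180 bases before it in DEPP1. TGTTTAC on either strand lay in 2.98% of all 27305 promoters of that length and in 1.91% of the 8551 measured genes matched. It lay in 28 of 546 promoters (5.13%) of genes at least 1.5-fold higher and in 12 of 893 (1.34%) of genes at least 1.5-fold lower. At 2-fold or more it lay in 13 of 176 (7.39%) of the higher and in 2 of 234 (0.855%) of the lower genes, and it lay in 5 of 41 promoters of the FOXO list. Another motif searched, the E-box CACGTG, lay in 9 of 41 promoters of the FOXO list (22.0%) and in 9.34% of the measured genes matched. The E-box lay in 68 of 546 (12.5%) of the genes at least 1.5-fold higher and in 79 of 893 (8.85%) of those lower. These shares describe letters in a short window, and most of the higher genes had no match there.

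Components of PI3K, AKT and mTOR signalling moved both ways. Of 24 measured, 7 (29.2%) were higher and 3 (12.5%) lower, beside 7.44% and 10.7% of all measured genes. The median was -0.08. TSC1 (0.97 [0.88, 1.06]), an inhibitor of mTORC1, FOXO3 (0.88 [0.83, 0.92]), RICTOR (0.86 [0.79, 0.94]), the scaffold of mTORC2, and PIK3CA (0.77 [0.66, 0.89]), the catalytic subunit of PI3K, were the highest. FOXO6 had the lowest ratio of the list at -1.60, and ran between -1.98 in cells scored G2M and -1.34 in cells scored S. PIK3R1, the regulatory subunit of PI3K, was lower too, with 8.83 scaled CPM with fulvestrant + neratinib against 17.2 with fulvestrant (-0.96 [-1.09, -0.83]). AKT1 lay at -0.58 [-0.62, -0.54], just inside 1.5-fold, and at -0.67 with total-count scaling, which is past it. PIK3CA came inside 1.5-fold in cells scored G2M.

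**Figure D3:**
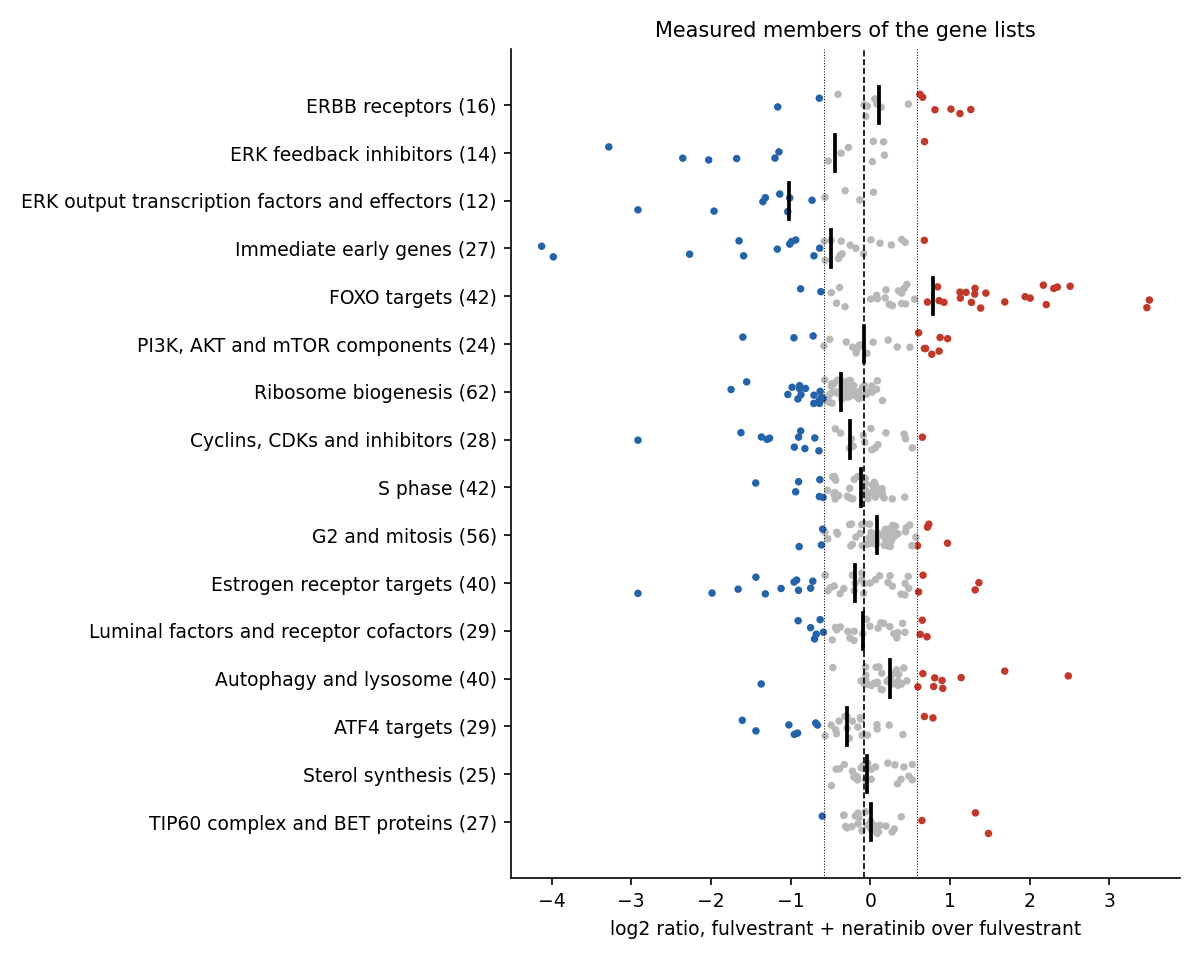
Each point is a measured member of a gene list (number measured in brackets), placed by its log2 ratio of fulvestrant + neratinib over fulvestrant; black bars are list medians, the dashed line is the median of all measured genes and dotted lines mark 1.5-fold, with higher members red and lower members blue. The FOXO median lies at 0.78 and that of ERK effectors at -1.02, and the sterol synthesis list has no member past 1.5-fold.

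In the MYC network, 3 repressor genes were higher and MYC was lower. MXI1 (1.38 [1.26, 1.51]), MXD3 (1.08 [1.003, 1.15]) and MNT (0.83 [0.69, 0.98]) encode proteins that pair with MAX in place of MYC and repress. MAX itself lay at -0.04 [-0.11, 0.03] with 34.9 scaled CPM with fulvestrant + neratinib against 35.9 with fulvestrant. MLX, a MAX-like partner, was lower at -0.68 [-0.77, -0.59] and at -0.54 in cells scored G2M. In all, 3 of 12 were higher and 2 lower, and the median of 0.02 turned to -0.06 with total-count scaling and to -0.05 with at most 20% MT- UMIs.

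Genes of ribosome biogenesis, a well-known MYC programme, were lower in part. Of 62 measured, 17 were lower against 0 higher, and the median lay at -0.37. RRS1, a factor of 60S subunit assembly, had 7.18 scaled CPM with fulvestrant + neratinib against 24.1 with fulvestrant (-1.75 [-1.88, -1.62]). PPAN (-1.55 [-1.69, -1.41]) comes next, and its reads may be shared with a readthrough transcript. UTP18 (-1.03 [-1.13, -0.94]), PNO1 (-0.98 [-1.10, -0.87]) and POLR1B (-0.81 [-0.99, -0.63]), a subunit of RNA polymerase I, were lower too. Polyamine and nucleotide genes tied to MYC included 5 lower and 0 higher of 25 measured, with a median of -0.30. ODC1 (-1.06 [-1.14, -0.99]) and AMD1 (-1.11 [-1.18, -1.03]), enzymes of polyamine synthesis, and CTPS1 (-1.01 [-1.17, -0.86]) were among them. The cytosolic ribosomal protein genes themselves showed 0 higher and 1 lower of 82 measured, with a median of 0.17 (list added after the values had been seen).

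Cyclin and CDK genes of the G1 to S transition were lower in part. Of 28 measured cyclins, CDKs, inhibitors and E2F genes, 11 were lower against 1 higher, and the median lay at -0.25. Besides CCND1, they included CCNE1 with 1.85 scaled CPM with fulvestrant + neratinib against 5.70 with fulvestrant (-1.62 [-1.89, -1.36]). E2F3 (-1.37 [-1.52, -1.21]), the phosphatase gene CDC25A (-1.30 [-1.53, -1.06]), CDK6 (-1.26 [-1.52, -1.01]) and CCND3 (-0.82 [-0.98, -0.66]) were lower as well. The higher member was CDKN1C (0.65 [0.43, 0.88]), the p57 inhibitor gene, which came inside 1.5-fold with at most 20% MT- UMIs. In cells scored G1, 5 of the 22 members measured there were lower and 1 higher, and CCNE1 lay at -0.82 and CCND3 at -0.33.

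Replication genes moved little apart from a few. Of 42 S phase genes measured, 6 were lower against 0 higher, and the median lay at -0.11. The median was 0.17 in cells scored G1, 0.11 in cells scored G2M and -0.20 in cells scored S. In cells scored S, 6 of 42 were lower and 0 higher. RRM2, the small subunit of ribonucleotide reductase, had 15.9 scaled CPM with fulvestrant + neratinib against 43.2 with fulvestrant (-1.44 [-1.53, -1.35]), but only -0.53 in cells scored G1. CLSPN (-0.94 [-1.01, -0.86]) and CCNE2 (-0.90 [-0.99, -0.81]) were the next lowest, and CLSPN lay at -0.07 in cells scored G1 and CCNE2 at -0.48 in cells scored G2M. With counts thinned to 5000 UMIs a cell, 22.3% [21.0, 23.7] of cells scored S with fulvestrant + neratinib against 25.5% [24.0, 27.0] with fulvestrant. That score is made from such genes, so it is no separate measure of cycling.

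Mitotic genes depended on which cells were kept. Of 56 measured, 4 were higher and 3 lower, with a median of 0.09 (0.00 with total-count scaling). The higher members were CDC25C (0.97 [0.83, 1.11]), HMGB2 (0.73 [0.71, 0.76]), HMMR (0.72 [0.67, 0.77]) and TTK (0.59 [0.52, 0.67]), which came to 0.51 with total-count scaling. The lower members were TUBB4B (-0.89 [-0.92, -0.87]), a tubulin gene with close paralogs, TACC3 (-0.61 [-0.70, -0.53]) and CDC20 (-0.60 [-0.65, -0.54]). In cells with at most 20% MT- UMIs, 17 were higher and 0 lower, with a median of 0.46, and CDC20 lay at -0.10 and TACC3 at -0.21. That ceiling kept 38.5% of cells with fulvestrant + neratinib against 84.7% with fulvestrant. Among the cells it kept, 33.0% scored G2M with fulvestrant + neratinib against 23.6% with fulvestrant, while over all cells the shares were 23.4% and 22.4%.

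Classical estrogen receptor targets differed little on top of fulvestrant, and the wider list did not move together. ESR1 had 13 scaled CPM [12.3, 13.8] with fulvestrant + neratinib against 11.6 [10.9, 12.3] with fulvestrant. PGR, the progesterone receptor gene, had 95.9 against 79.2 (0.28 [0.23, 0.32]). GREB1 had 29.2 against 21.6 (0.43 [0.35, 0.52]) and TFF1 had 1771 against 1878 (-0.08 [-0.09, -0.07]). These 4 were within 1.5-fold, though GREB1 came to 0.59 in cells scored G1, which is past it.

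Of 40 receptor targets measured, 11 were lower against 4 higher, and the median lay at -0.20. The lower ones include genes that also respond to ERK, such as CCND1, AREG and MYC. Others were FHL2 (-1.66 [-1.998, -1.33]), STC2 (-1.44 [-1.64, -1.23]), TSKU (-1.12 [-1.25, -0.99]), ZNF703 (-0.93 [-1.03, -0.82]) and XBP1 (-0.75 [-0.77, -0.72]). The higher ones were PPM1K (1.36 [1.22, 1.51]), IGF1R, THSD4 (0.66 [0.57, 0.75]) and SGK3 (0.61 [0.52, 0.69]). With total-count scaling, 15 were lower and 2 higher, and THSD4 at 0.55 in cells scored S and SGK3 in cells scored G2M came inside 1.5-fold.

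Luminal identity genes were lower in part. GATA3, a luminal transcription factor, had 147 scaled CPM with fulvestrant + neratinib against 276 with fulvestrant (-0.91 [-0.94, -0.87]). SPDEF (-0.70 [-0.73, -0.67]) and TFAP2A (-0.59 [-0.63, -0.54]) were lower, and FOXA1, the pioneer factor of the estrogen receptor, lay within 1.5-fold at -0.38 [-0.41, -0.34]. Among coactivators, CREBBP (0.71 [0.65, 0.78]) and NCOA2 (0.65 [0.56, 0.74]) were higher and NCOA1 (-0.68 [-0.81, -0.54]) lower. CREBBP came to 0.53 in cells scored G2M, TFAP2A to -0.44 and NCOA2 to 0.54 in cells scored S, and NCOA1 to -0.47 in cells scored G1. In all, 3 of 29 were higher and 6 lower, with a median of -0.09. Of 25 keratin and junction genes, 1 was higher and 5 lower, with a median of -0.29. KRT19, a luminal keratin, had 1134 scaled CPM with fulvestrant + neratinib against 2603 with fulvestrant, a log2 ratio of -1.20 [-1.21, -1.19], and KRT18 lay at -0.61 [-0.62, -0.59] and at -0.44 in cells scored G2M. CLDN8, a tight junction claudin, was the higher one, with 9.23 against 2.99 (1.63 [1.42, 1.83]).

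BRD8 is named in the title of the study and encodes a bromodomain protein of the TIP60 histone acetyltransferase complex. It had 60.4 scaled CPM [58.8, 62.1] with fulvestrant + neratinib against 21.6 [20.6, 22.6] with fulvestrant. Its log2 ratio of 1.48 [1.41, 1.56] ran between 1.40 and 1.64 under 12 other settings. MBTD1, another subunit of that complex, had 35.7 against 14.3 (1.32 [1.22, 1.42]), and EPC2 had 14.7 against 9.40 (0.65 [0.52, 0.78]; 0.56 with total-count scaling). The catalytic subunit KAT5 (0.01 [-0.05, 0.07]), the scaffold TRRAP (0.01 [-0.08, 0.09]) and EP400 (-0.23 [-0.31, -0.15]) were within 1.5-fold. BRD2 (0.27 [0.24, 0.31]), a BET bromodomain gene, was too. Of 27 genes of the complex, of BET proteins and of their elongation partners, 3 were higher and 1, HEXIM1 (-0.60 [-0.69, -0.51]; -0.27 in cells scored S), was lower, with a median of 0.01 that turned to -0.08 with total-count scaling and to -0.00 over non-mitochondrial UMIs, and lay at -0.01 as a mean of per-cell CPM.

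Autophagy genes were higher in part. Of 40 autophagy and lysosome genes measured, 9 were higher and 1 lower, with a median of 0.25. CALCOCO1, a receptor of selective autophagy, had 40.1 scaled CPM [38.8, 41.5] with fulvestrant + neratinib against 7.17 [6.62, 7.76] with fulvestrant (2.48 [2.36, 2.61]). ATG14 (1.14 [0.97, 1.31]), NBR1 (0.91 [0.83, 0.99]), RB1CC1 (0.90 [0.85, 0.95]) and WIPI2 (0.80 [0.76, 0.83]) act in autophagosome formation or cargo choice. TP53INP2 was the lower member at -1.37 [-1.49, -1.25].

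Like most measured genes, those of cell death mostly stayed within 1.5-fold. BMF, a BH3-only killer protein, had 8.50 scaled CPM with fulvestrant + neratinib against 2.62 with fulvestrant (1.70 [1.48, 1.92]), and it and BOK (-0.74 [-0.87, -0.61]) were the only ones past 1.5-fold among 16 BCL2 family genes. In the TRAIL and death receptor list, 1 of 13 (7.69%) was higher and 3 (23.1%) lower, beside 7.44% and 10.7% of all measured genes. The higher one was the ligand gene TNFSF10, while its receptor gene TNFRSF10A was lower (-0.89 [-1.18, -0.61]), as were TNFRSF12A (-1.54 [-1.59, -1.49]) and XIAP (-0.63 [-0.71, -0.54]; -0.53 with at most 20% MT- UMIs). The list medians were -0.09 for the BCL2 family and -0.11 here.

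Metabolic and stress lists were mixed. No gene of sterol synthesis (25 measured, median -0.04) or heat shock (18 measured, median -0.08) was past 1.5-fold. Within phases, 4 sterol genes were higher in cells scored G1 and 2 in cells scored S. In cells scored G2M, 1 sterol gene was higher and 1 lower. Among heat shock genes, 1 was lower in cells scored G1 and 1 with total-count scaling. Of 17 fatty acid genes, MID1IP1 (-1.02 [-1.13, -0.90]) and the desaturase gene FADS1 (-0.98 [-1.04, -0.92]) were lower against 0 higher, and the median lay at -0.15. Of 31 glycolysis and hypoxia genes, 3 were higher and 5 lower, with a median of -0.20, and VEGFA, the angiogenic factor gene, had 9.46 scaled CPM with fulvestrant + neratinib against 21.3 with fulvestrant (-1.17 [-1.29, -1.05]). Of 29 ATF4 targets, 2 were higher and 7 lower, with a median of -0.29. GDF15 (-1.61 [-1.85, -1.37]), the gene of a secreted stress cytokine, TRIB3 (-1.02 [-1.08, -0.96]) and CEBPB (-0.91 [-0.95, -0.87]) were lower, and the amino acid carrier gene SLC38A2 was higher (0.79 [0.73, 0.85]). Of 23 unfolded protein response genes, 4 were lower against 0 higher, and the median lay at -0.08, and the chaperone partner SDF2L1 was the lowest (-1.25 [-1.33, -1.18]).

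Smaller lists gave a few differences. In the Notch pathway, 4 of 10 measured were lower against 0 higher, and the median lay at -0.55. In cells scored G2M, 2 of 9 were lower and the median was -0.19. NOTCH1 (-0.59) came to -0.36 with at most 20% MT- UMIs and HEY2 (-0.67) to -0.56 in cells scored G1, both inside 1.5-fold. HES1, a repressor induced by Notch, had 90.9 scaled CPM with fulvestrant + neratinib against 174 with fulvestrant (-0.94 [-0.98, -0.90]), and HES4 lay at -0.90 [-0.93, -0.86]. Among ID factors and SMAD feedback genes, 3 of 15 were higher and 2 lower, with a median of 0.14. ID3 (0.65 [0.63, 0.68]) and ID4 (0.75 [0.66, 0.84]), inhibitors of DNA binding, were higher and SKIL (-1.21 [-1.35, -1.07]), a SMAD corepressor gene, was lower. With total-count scaling and with at most 20% MT- UMIs, 1 of 15 was higher, as ID3 (0.57 and 0.50) and BMP4 (0.58 and 0.52 beside 0.66) came inside 1.5-fold; so did ID3 in cells scored G2M, at 0.50. Of 12 clock genes, 3 were higher and 2 lower, with a median of -0.17. PER1 (1.05 [0.79, 1.32]) was higher while PER2 (-0.88 [-1.04, -0.71]) and PER3 (-0.92 [-1.07, -0.76]) were lower. STAT2 (0.85 [0.68, 1.01]) was the single gene past 1.5-fold among 14 interferon and MHC class I genes, whose median of 0.03 turned to -0.06 with total-count scaling and -0.02 with at most 20% MT- UMIs. Of 4 TXNIP family genes, ARRDC4 (-1.33 [-1.55, -1.11]) was lower, with a median of -0.36, and of 4 measured basal and mesenchymal genes 0 were past 1.5-fold, with a median of 0.31. In cells scored S, 3 of the 5 basal and mesenchymal genes measured there were higher, with a median of 0.60. With at most 20% MT- UMIs the median of that list was 0.04. The 13 mitochondrial transcripts were all within 1.5-fold, with a median of 0.35.

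Outside these lists, the 15 lowest and 15 highest genes at a mean of at least 10 scaled CPM included several with other roles. PHLDA2, an imprinted growth-restricting gene, had 6.97 scaled CPM [6.43, 7.54] with fulvestrant + neratinib against 56.5 [54.9, 58.1] with fulvestrant (-3.02 [-3.14, -2.90]). PLK2, a kinase gene induced by serum, had 11.8 against 55.4 (-2.23 [-2.33, -2.14]). ASCL2, a transcription factor gene of the WNT pathway in intestinal stem cells, had 23.6 against 82.5 (-1.81 [-1.88, -1.74]). LRFN4 (-1.84 [-1.96, -1.72]), TRIM47 (-1.77 [-1.93, -1.62]), PRR7 (-1.70 [-1.81, -1.59]), the hyaluronidase gene HYAL2 (-1.69 [-1.82, -1.56]), the tubulin gene TUBB6 (-1.66 [-1.81, -1.52]) and CDC42EP2 (-1.65 [-1.78, -1.53]), a CDC42 effector, were lower.

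On the higher side, GLUL, glutamine synthetase and another known FOXO-linked enzyme, had 44.7 scaled CPM with fulvestrant + neratinib against 13.3 with fulvestrant (1.75 [1.65, 1.85]). RBM20, a splicing factor gene, had 17.3 against 4.22 (2.04 [1.87, 2.21]), and HDAC5, a class IIa deacetylase, 18.4 against 5.84 (1.66 [1.51, 1.81]). CCDC28A (1.98 [1.82, 2.14]), ABTB1 (1.78 [1.62, 1.94]) and the interferon-inducible GTPase gene GBP2 (1.77 [1.64, 1.91]) followed. HIST1H2BD (1.73 [1.61, 1.84]) has near-identical copies, so its count is uncertain, and it lay at 1.03 in cells scored G2M. Among the lncRNA hosts of small nucleolar RNAs, a list added after the values had been seen, SNHG15 was lower (-1.55 [-1.65, -1.45]) and SNHG7 higher (0.78 [0.74, 0.83]; 0.58 in cells scored G2M) of 10 measured, with a median of 0.33.

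Cell by cell, the shift in FOXO targets covered most of the library. With each cell thinned to 5000 UMIs, the FOXO targets summed to 12.5 ± 4.22 UMIs per cell (SD over 3800 cells) with fulvestrant + neratinib and 7.54 ± 3.30 (SD over 3394 cells) with fulvestrant. The median was 12 UMIs with fulvestrant + neratinib, with 5th to 95th percentiles of 6 to 20, against a median of 7 with fulvestrant, with percentiles of 3 to 14. A sum above the fulvestrant median was found in 89.6% of cells with fulvestrant + neratinib and in 45.2% with fulvestrant. As shares of all UMIs of a cell, without thinning, these were 98.3% and 50%. The ERK feedback genes summed to 1.70 ± 1.40 UMIs per cell with fulvestrant + neratinib and 2.69 ± 1.82 with fulvestrant, so few that counting error alone spreads the cells widely. Over all cells this list summed to 337 scaled CPM with fulvestrant + neratinib against 502 with fulvestrant. DUSP4 alone made up most of that difference, so the sum per cell mainly follows DUSP4. A sum above the fulvestrant median was found in 23.4% of cells with fulvestrant + neratinib and 48.9% with fulvestrant, and in 15.3% and 50% without thinning. A sum of 0 UMIs was found in 19.7% of cells with fulvestrant + neratinib and 7.63% with fulvestrant. Ribosome biogenesis genes summed to 17.2 ± 5.67 UMIs with fulvestrant + neratinib and 20.4 ± 6.38 with fulvestrant. Immediate early genes summed to 10.1 ± 4.34 UMIs with fulvestrant + neratinib and 13.1 ± 5.58 with fulvestrant. Estrogen receptor targets summed to 23.3 ± 11.2 UMIs with fulvestrant + neratinib and 28.3 ± 12.4 with fulvestrant. Their sum was above the fulvestrant median in 31.4% of cells with fulvestrant + neratinib and 49.7% with fulvestrant. These SDs are between cells of 1 library and are no measure of replicate error. The UMIs of a cell, thinned or not, include MT- UMIs, so these sums follow total counts and not the median-of-ratios scaling. With the higher MT- share of the fulvestrant + neratinib cells, fewer of their 5000 UMIs were left for other genes. The part of this in the lower sums was not tested.

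**Figure D4:**
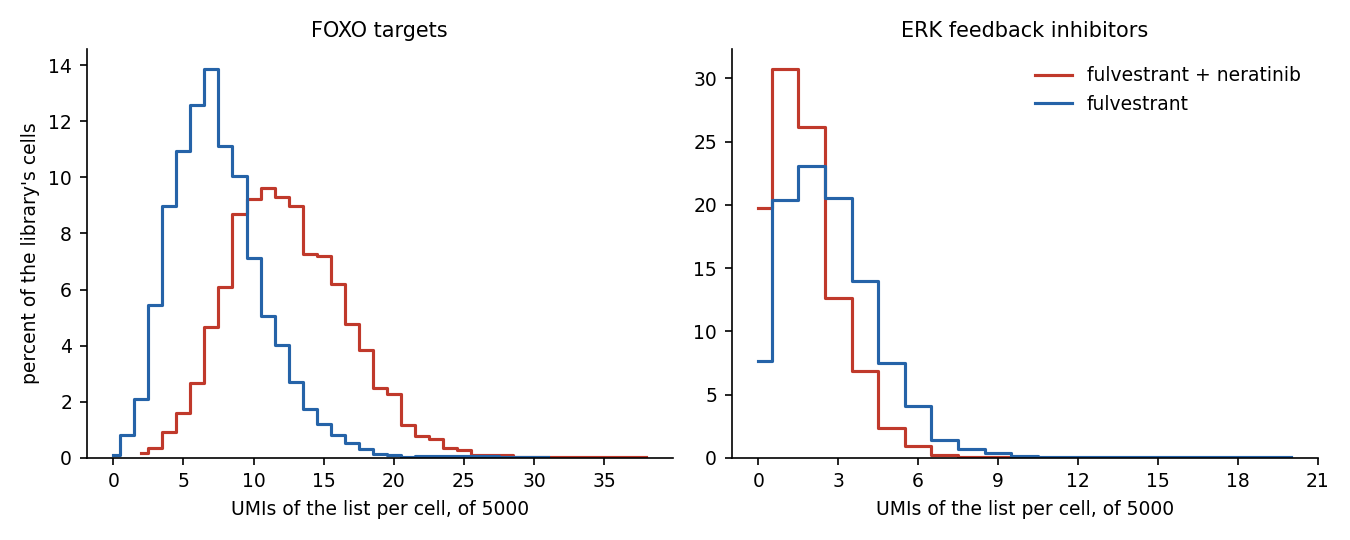
Lines give the percent of each library's cells with a given number of UMIs of the FOXO target list (left) and the ERK feedback list (right), after each cell was thinned to 5000 UMIs, for fulvestrant + neratinib (red) and fulvestrant (blue). The FOXO sums peak near 12 against 7 UMIs, and the ERK feedback sums overlap widely.

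The same addition of neratinib can be read without fulvestrant, in a pair of libraries that shares none with the first. Of the same 11002 genes, 824 (7.49%) were at least 1.5-fold higher and 1185 (10.8%) at least 1.5-fold lower with neratinib than with DMSO. In both pairs 688 genes were higher, 84.0% of those higher with fulvestrant + neratinib and 83.5% of those higher with neratinib. In both pairs 967 were lower, 82.5% and 81.6% of each list, and 0 genes were past 1.5-fold in opposite directions. Across the 11002 genes, the 2 sets of log2 ratios had a Pearson r of 0.96, which describes these libraries and has no test, since genes are not independent replicates.

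**Figure D5:**
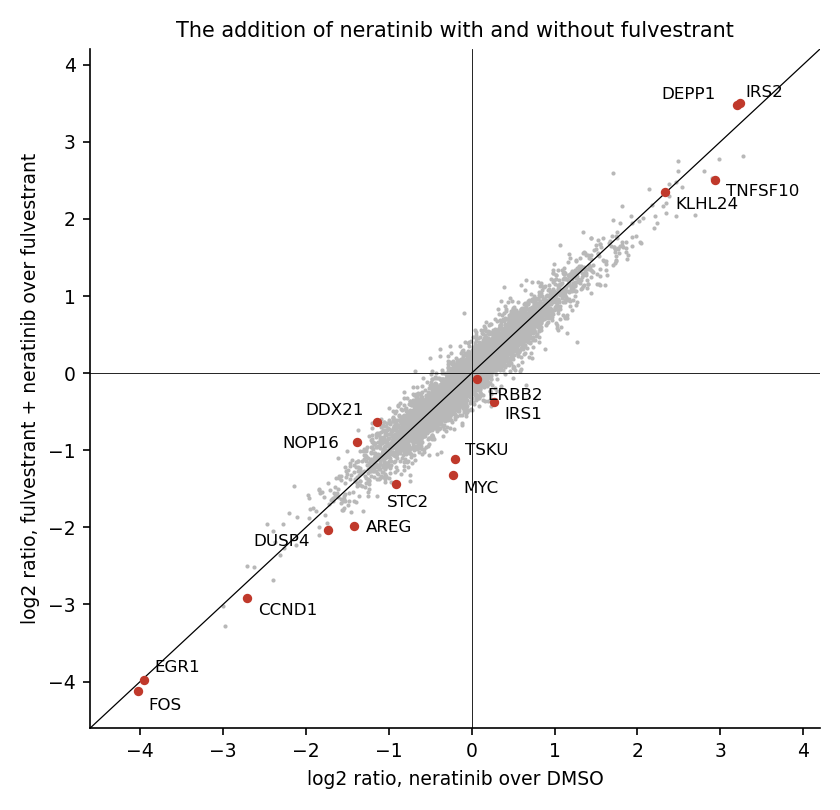
Each grey point is a measured gene, with its log2 ratio of neratinib over DMSO on the x axis and of fulvestrant + neratinib over fulvestrant on the y axis; the diagonal marks equal ratios and named genes are red. Most genes follow the diagonal, while MYC lies at -1.32 against -0.22 and TSKU at -1.12 against -0.21.

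Most leading genes had like ratios in both pairs. FOS had 2.40 scaled CPM with neratinib against 39.1 with DMSO, a log2 ratio of -4.03 beside -4.12 on top of fulvestrant. EGR1 had -3.95 beside -3.98, and BRD8, with 61.2 scaled CPM with neratinib against 22.6 with DMSO, had 1.44 beside 1.48. The FOXO list had 23 higher and 2 lower with a median of 0.82 for neratinib over DMSO, beside 22, 2 and 0.78.

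A few genes had unlike ratios, and the difference between pairs was not tested, as each group is 1 library. MYC had 63.1 scaled CPM with neratinib against 73.8 with DMSO, a log2 ratio of -0.22 [-0.28, -0.17], beside -1.32 on top of fulvestrant. TSKU, a secreted estrogen-responsive protein, had 47.9 against 55.2 (-0.21 [-0.27, -0.15]), beside -1.12. AREG had 25.2 against 67.6 (-1.42 [-1.50, -1.35]), beside -1.99. Each of these 3 was lower in both libraries with fulvestrant than in its counterpart without it. IRS1 had 12 against 9.99 (0.26 [0.14, 0.39]), beside -0.38, and NPY1R had 19.99 against 12.7 (0.66 [0.55, 0.76]), beside -0.15.

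Nucleolar genes went the other way, with smaller ratios on top of fulvestrant. DDX21, a helicase of ribosomal RNA processing, had 50.4 scaled CPM with neratinib against 112 with DMSO (-1.15 [-1.20, -1.10]), beside -0.63. NOP16 had -1.38 [-1.49, -1.27] beside -0.89, and LYAR -1.20 [-1.30, -1.10] beside -0.71. Of the 62 ribosome biogenesis genes, 29 were lower with neratinib than with DMSO, with a median of -0.54, beside 17 and -0.37 on top of fulvestrant. The 2 libraries with neratinib had like levels of DDX21, 52.9 with fulvestrant + neratinib and 50.4 with neratinib, while the fulvestrant library had 81.9 and the DMSO library 112.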

How the data were processed

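Droplet single-cell RNA-seq of 4 libraries (10x Genomics, 3' chemistry) was used. The authors deposited UMI counts, whole numbers per gene and barcode. The submitters' processing notes name Cell Ranger 3.1.0 and hg19. The deposited barcode and gene names hold no unit. Each barcode ends in a library number, which was matched to the number each title starts with, as no other label states it. The matrix held 33538 genes, and 48 that share a symbol were kept apart by identifier. The sources used here do not say whether reads were evened between libraries. Cells were called as stated above, which removed 95 barcodes with fulvestrant + neratinib and 111 with fulvestrant on their MT- share or genes. Doublets were not called. Free RNA was not removed. UMIs were summed per library and scaled by the median of ratios (size factors 0.993 and 0.965). With 1 library per group no test across genes was made, and a gene was called past 1.5-fold. Phases were scored with scanpy 1.11.5. TMM factors came from edgeR 4.0.16. The sums and intervals were tested on simulated data. Promoters are from RefSeq, matched by symbol. The genes named were a fixed set, the 15 highest and 15 lowest ratios at a mean of at least 10 scaled CPM without mitochondrial, ribosomal protein or clone-named genes, and up to 6 of the largest members per list with those a role order needs. Members and lists were chosen with earlier results of these data known. Alternatives were other scalings, MT- ceilings, UMI minimums, level and fold thresholds, phases, thinning and cells without shared barcodes or the 2% with most UMIs. A few results are not reported here.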

Additional observations from a re-analysis of the deposited data

How the results depend on the processing

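Of 209 named genes, 190 were past 1.5-fold. All 190 had the same sign under the 12 alternatives for cells and scaling, and 135 were past 1.5-fold in each of them. With a mean of at least 10 scaled CPM, 306 genes were higher and 604 lower with fulvestrant + neratinib than with fulvestrant, with a laxer fold threshold 1786 and 2796, and at 2-fold 284 and 324. These follow from how the thresholds are built. Total-count CPM gave 654 and 1548, TMM 823 and 1171, and a ceiling of 20% MT- UMIs 771 and 1118. Scored on counts as deposited, 16.8% of cells with fulvestrant + neratinib and 22.2% with fulvestrant were in S. With thinned counts and at most 20% MT- UMIs, 33.0% of cells with fulvestrant + neratinib and 23.6% with fulvestrant were in G2M. Under that ceiling, counts as deposited gave 34.1% and 24.5% in G2M. The cause was not tested. Of 1260 counts over lists under alternatives, 188 moved by over 1.5 times. In barcodes with 1 to 100 UMIs, an alternative chosen after seeing the data, NOTCH1 turned to 0.41, EPHB6 to 0.35 and CDKN1C to -0.35, and the cause was not tested. No paired analysis was possible because each group is 1 library, and for the same reason none could be left out. Having 1 library a group leaves the spread between cultures unmeasured, and depth limits low genes, whose counting intervals reach across 1.5-fold, as for EPHB6 (-0.61 [-0.89, -0.33]).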
